A study of Rattus norvegicus with 18 samples.

Results

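Heat shock and unfolded protein genes were followed in the lung of rats that had inhaled cigarette smoke. The genes were Hspa1a, Hsph1, Dnajb1, Hspb1, Hspa8, Hspd1, Hspa5, Ddit3 and Atf4, taken as every probe set that the array annotation gave to one of these 9 symbols and to no other gene. This left 10 probe sets for 8 of the 9 genes, of 19638 probe sets tested, and all 10 passed the filter on low signals. Hsph1 and Dnajb1 each had 2 probe sets. Hspa8 was represented only by a probe set shared with Haus8l2, and a further probe set was shared by Hspa1a and Hspa1b, so these 2 were left out and Hspa8 has no value here.

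The animals were male Sprague-Dawley rats of an age the labels do not state. They were sham-exposed, or breathed mainstream smoke of the reference cigarette 2R4F, through the nose only, with 300 or 600 µg/l of smoke particles (total particulate matter, TPM), for 2 h a day, 5 days a week, over 13 weeks. Lungs were collected 2, 6 or 20 h after exposure had ended, which gave 9 conditions. RNA of each condition was measured on 1 array of type A and 1 array of type B, Affymetrix designs that carry mostly different probe sets, for 18 arrays in all, and how many animals an array holds was not stated. Values are the deposited MAS5 signals on a linear scale. Differences are in log2(signal + 50), which understates the change of dim probe sets. No condition had a second array, so exposures were compared over their 3 recovery times and recovery times over their 3 exposures. The error of these fits holds array-to-array spread together with any change of the exposure difference between times, which cannot be told apart. A p-value here speaks only of that mixed spread, and a difference present at 1 time only widens it. In bulk lung RNA, fewer cells of a type and less RNA per cell cannot be told apart.

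Proteins that lose their fold are held and refolded by chaperones, and each compartment of the cell has its own set and its own alarm. In the cytosol, heat shock factor 1 trimerises on damage and binds heat shock elements, arrays of inverted GAA units in promoters, to switch on genes such as Hspa1a, Hsph1, Dnajb1 and Hspb1. In the endoplasmic reticulum the sensors ATF6, IRE1 and PERK induce Hspa5 and other luminal chaperones, ATF6 through the ER stress element. PERK and related kinases also phosphorylate eIF2α, which favours translation of Atf4 and, downstream of it, transcription of Ddit3. ATF4 is therefore regulated largely at translation, which an array of RNA does not measure. Lung epithelium meets oxidants and aldehydes of smoke directly, and its secretory cells have an active endoplasmic reticulum.

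The stretches of 250 bases before the annotated start of 3 of the genes are shown because each holds a complete textbook element of its pathway. They come from RefSeq on build GRCr8, read 5′ to 3′ on the gene's strand: Hsph1 at chr12:10427118-10427367 (plus strand), Hspd1 at chr9:64084038-64084287 (minus strand) and Hspa5 at chr3:38452766-38453015 (plus strand). All 3 lie upstream of their gene. Capitals mark heat shock elements in Hsph1 and Hspd1 and the ER stress element in Hspa5.
Hsph1: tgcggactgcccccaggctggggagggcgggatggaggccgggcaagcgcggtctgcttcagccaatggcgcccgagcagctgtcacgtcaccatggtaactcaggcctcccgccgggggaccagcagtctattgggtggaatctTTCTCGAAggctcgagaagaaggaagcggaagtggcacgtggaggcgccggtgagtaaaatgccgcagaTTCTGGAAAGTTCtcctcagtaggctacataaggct
Hspd1: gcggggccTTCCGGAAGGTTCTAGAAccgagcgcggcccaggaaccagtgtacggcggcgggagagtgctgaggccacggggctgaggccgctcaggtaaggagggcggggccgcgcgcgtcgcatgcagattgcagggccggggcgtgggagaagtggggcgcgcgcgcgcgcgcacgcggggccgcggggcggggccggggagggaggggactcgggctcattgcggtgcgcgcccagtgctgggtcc
Hspa5: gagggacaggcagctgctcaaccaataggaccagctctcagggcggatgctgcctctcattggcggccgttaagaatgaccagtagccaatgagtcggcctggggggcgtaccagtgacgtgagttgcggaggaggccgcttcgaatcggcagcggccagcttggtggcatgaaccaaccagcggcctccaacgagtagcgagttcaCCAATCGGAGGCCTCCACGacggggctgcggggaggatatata

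Heat shock elements were searched as GAANNTTC or TTCNNGAA (2 units) and as GAANNTTCNNGAA or TTCNNGAANNTTC (3 units, whose matches contain those with 2), on both strands of 300 bases from 250 before to 50 after the start. The form with 3 units was found in Hsph1, at bases -36 to -24, and in Hspd1, as 2 overlapping matches within bases -242 to -225, that is in 2 of the 8 genes and in 0.798% of 33469 rat promoters of that length. The form with 2 units was found in those genes, Hspb1 and Dnajb1, 4 of the 8, and in 15.9% of all promoters. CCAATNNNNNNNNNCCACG, the ER stress element, was found in Hspa5 at bases -43 to -25, in 1 of the 8 genes and 0.0657% of all promoters. TGACGTGG, the core bound by XBP1 and ATF6, occurred in 0 of the 8 (0.595% of all), and the amino acid response element TGATGCAA also in 0 (0.795% of all). A match describes these letters and is no measure of binding, and a window without a match says only that the letters are not in it.

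The arrays carried lung markers at high signal, with Sftpc of alveolar type 2 cells at 15855 to 18566, Scgb1a1 of club cells at 13321 to 15904 and Ager of alveolar type 1 cells at 7819 to 9106. The median signal of an array lay between 263.6 and 278.5 for type A, and between 315.3 and 338.7 for type B. On type B, the sham and 300 µg/l arrays of 2 h deviated together (r = 0.56, next highest pair 0.12, highest on type A 0.23), which bears on the type B probe set of Hsph1. For the smoke arrays at 20 h a further label reads sham while title and source name smoke, so the comparisons of exposures, of 6 h with 2 h and of the smoke effect at 6 h with that at 2 h were also run without the 20 h arrays, which the comparisons that use 20 h do not allow. The 3′/5′ ratio of hexokinase, a sign of RNA quality, was highest on type A for sham at 6 h, at 4.52 against 2.62 to 3.27 on the other type A arrays, and on type B for 300 µg/l at 20 h, at 4.72, followed by sham at 6 h, at 3.68.

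No probe set of these genes differed between exposures past the threshold, and the fitted differences between exposures reached 0.32 at most, against -0.97 between times. Against sham, 600 µg/l gave differences from -0.05 in Hspb1 to 0.32 in Hsph1, with a median of 0.12 against -0.0075 over all probe sets. In this comparison limma's moderated test with Benjamini-Hochberg adjustment called 0 of the 10 and 0.514% of all probe sets. For 300 µg/l against sham the range ran from -0.14 in Hspa5 to 0.24 in Hspa1a, with a median of 0.080 against -0.0020 over all, and 0 of the 10 were called beside 0.0458% of all. The comparison of 600 with 300 µg/l also called 0 of the 10 (0.0204% of all), and so did the moderated F test for any difference among exposures (0.214% of all). At an unadjusted p under 0.05 the 10 probe sets still gave 0 in these 4 comparisons. None had all 3 arrays of 600 µg/l above all 3 of sham (6.98% of all probe sets did), or all 3 of 300 µg/l above them (4.12%).

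**Figure D1:**
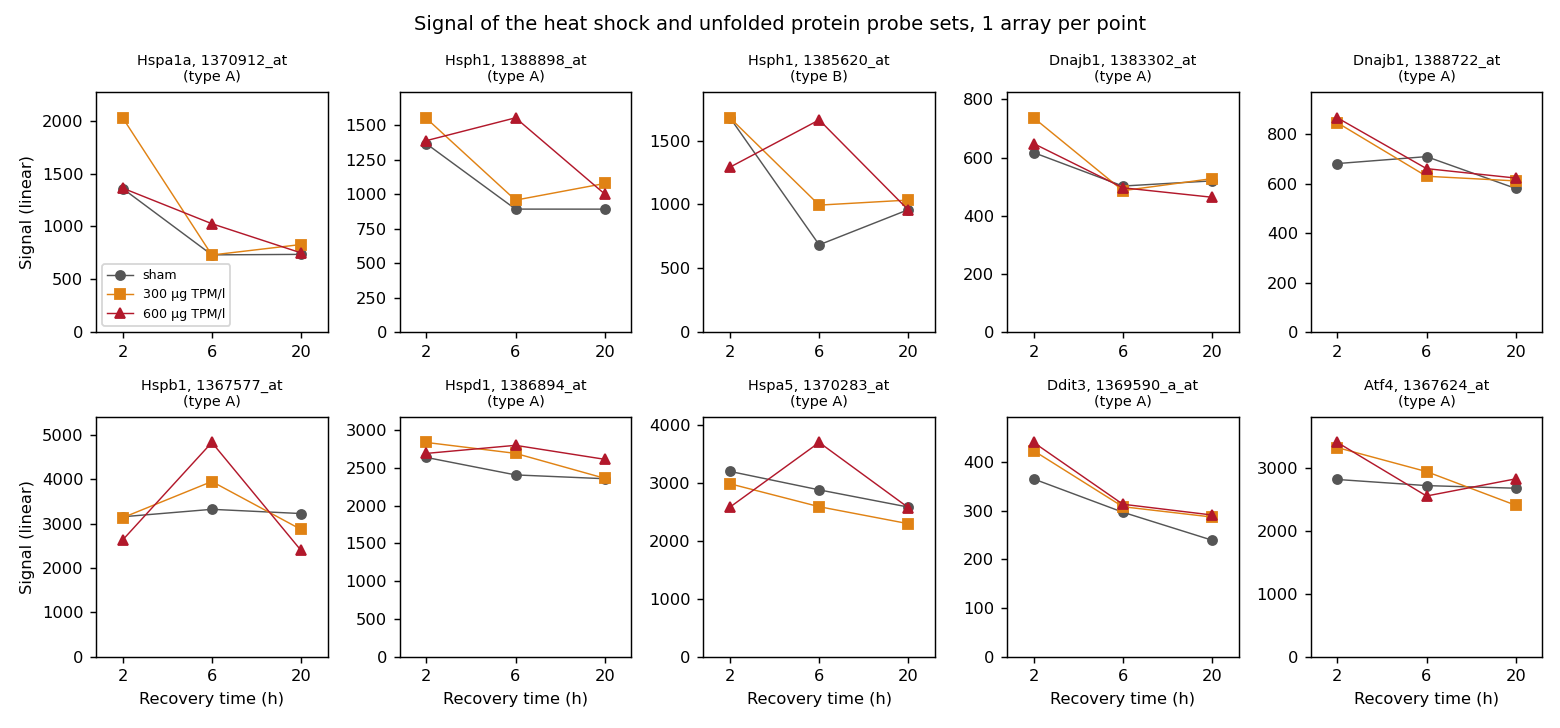
Signal of the 10 probe sets (vertical axis, linear scale from 0) against recovery time in hours, with grey circles for sham, orange squares for 300 and red triangles for 600 µg TPM/l, 1 array per point. Hspa1a is highest at 2 h in all 3 exposures, whereas Hspb1, Hspa5 and the type A probe set of Hsph1 have their highest point at 6 h after 600 µg/l.

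Hspa1a encodes the inducible HSP70, which binds exposed hydrophobic stretches of unfolded proteins. At 2 h its signal (1370912_at) was 1358.7 in sham, 2027.6 after 300 and 1362.6 after 600 µg/l. At 6 h it was 731.0, 729.8 and 1025.8, and at 20 h 735.8, 829.0 and 749.8. Every array at 2 h lay above every array at 6 and 20 h, the sham arrays included. Beside this, 8.15% of all probe sets had 2 h above 6 h and 9.42% had 2 h above 20 h. The share with both was not counted. At 2 h the arrays of sham and 600 µg/l were nearly equal. The means were 1583 ± 385 at 2 h, 829 ± 171 at 6 h and 772 ± 50.3 at 20 h (SD, n = 3 exposures each). The difference at 20 h from 2 h was -0.97 (SE 0.15, 95% confidence interval -1.31 to -0.62, adjusted p = 0.064, limma), and at 6 h from 2 h it was -0.89 (SE 0.15, interval -1.23 to -0.54, adjusted p = 0.11), lower in 3 of 3 exposures both times. Neither passed the threshold. Without the arrays of 300 µg/l at 6 h, or of 600 µg/l at 6 h, the adjusted p at 20 h was 0.033 or 0.039 in limma with the difference still -0.97, with median scaling it was 0.045, and over all 18 alternatives it ran from 0.033 to 0.30. Its range over the 9 conditions, 1.41 in log2, was wider than that of 96.4% of probe sets.

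Hsph1 encodes HSP105, the nucleotide exchange factor that makes HSP70 release its client. On type A (1388898_at) its signal at 2 h was 1367.3 in sham, 1551.6 after 300 and 1389.7 after 600 µg/l. At 6 h it was 892.9, 958.0 and 1555.4, and at 20 h 892.6, 1078.9 and 1002.6. So the signal was high in all 3 exposures at 2 h, and at 6 h only the 600 µg/l array was at that level. On type B (1385620_at), the signals in the same order were 1679.0, 1678.8 and 1292.5 at 2 h, 684.0, 995.1 and 1662.6 at 6 h, and 959.6, 1034.7 and 956.7 at 20 h. Both probe sets ran alike over the 9 conditions (r = 0.93, description only). At 20 h they differed from 2 h by -0.51 (SE 0.15, limma adjusted p = 0.24) and -0.62 (SE 0.24, adjusted p = 0.37), lower in 3 of 3 exposures. Without the type B sham array of 2 h the second value was -0.41 (adjusted p = 0.72, limma). Against sham, 600 µg/l gave 0.32 (SE 0.15, interval -0.02 to 0.65, adjusted p = 0.51) on A and 0.28 (SE 0.24, interval -0.25 to 0.82, adjusted p = 0.75) on B, and 0.50 (adjusted p = 0.575) on B without that array, by limma.

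Dnajb1 encodes HSP40, the J protein that hands clients to HSP70 and starts its ATP cycle. Its first probe set (1383302_at) read 617.3 in sham, 736.9 after 300 and 648.3 after 600 µg/l at 2 h, then 502.3, 486.4 and 496.4 at 6 h, and 520.1, 527.8 and 463.8 at 20 h. All 3 arrays at 2 h were above the 6 later ones, which were close to one another. Over all probe sets, 2 h lay above 6 h in 8.15% and above 20 h in 9.42%, with the joint share not counted. The second (1388722_at) read 681.9, 847.1 and 867.0 at 2 h, 710.0, 630.6 and 661.5 at 6 h, and 581.3, 611.8 and 623.3 at 20 h, so 2 h overlapped 6 h, through the sham arrays, but lay above 20 h. From 2 to 20 h both differed by -0.37 (SE 0.09 and 0.10, limma adjusted p = 0.18 and 0.22), lower in 3 of 3 exposures. Against sham at 600 µg/l they took opposite signs, -0.03 and 0.11.

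Hspb1 encodes HSP27, a small heat shock protein that holds unfolded clients without ATP and binds actin. Its signal (1367577_at) was 3153.1 in sham, 3132.3 after 300 and 2630.5 after 600 µg/l at 2 h. At 6 h it was 3321.0, 3947.3 and 4826.8, and at 20 h 3225.7, 2867.4 and 2395.4. Sham stayed level (3233 ± 84.2, SD, n = 3 times), while the 600 µg/l arrays held both the highest and the lowest of all 9 values and varied most (3284 ± 1341). The means over time for the exposures therefore hardly differed, at -0.05 for 600 µg/l against sham (SE 0.15, interval -0.38 to 0.28, limma adjusted p = 0.94). At 6 h all 3 arrays lay above those at 2 h, beside 7.93% of all probe sets. The difference was 0.42 (SE 0.15, adjusted p = 0.35, limma), and at 20 h the difference from 6 h was -0.50 (SE 0.15, adjusted p = 0.9998). The difference of smoke from sham, both exposures together, was higher at 6 h than at 2 h by 0.52 (SE 0.23, adjusted p = 0.80) and at 20 h differed from that at 6 h by -0.68 (SE 0.23, interval -1.21 to -0.16, adjusted p = 0.69, limma), neither past the threshold.

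Hspd1 encodes HSP60, the barrel chaperonin of the mitochondrial matrix, and was the steadiest of the 8 genes. Its signal (1386894_at) ran from 2354.5 in sham at 20 h through a median of 2635.9 to 2833.9 after 300 µg/l at 2 h, and its range of 0.26 in log2 was wider than that of only 8.50% of probe sets. After 600 µg/l it was 2689.0, 2795.9 and 2611.0 at 2, 6 and 20 h, against 2635.9, 2404.7 and 2354.5 in sham, higher in 3 of 3 times but with the highest sham array above the lowest of 600 µg/l. The fitted difference was 0.13 (SE 0.07, interval -0.03 to 0.29, adjusted p = 0.60, limma). Hspd1 carries the 3-unit element printed above, as does Hsph1, whose range was 0.77 on type A.

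Hspa5 encodes BiP (GRP78), the HSP70 of the endoplasmic reticulum, which also keeps the stress sensors there inactive. Its signal (1370283_at) at 2 h was 3197.4 in sham, 2983.8 after 300 and 2582.0 after 600 µg/l. At 6 h it was 2878.8, 2588.5 and 3696.7, and at 20 h 2581.9, 2295.2 and 2572.4. After 600 µg/l it was thus the lowest exposure at 2 h and the highest of all 9 arrays at 6 h, and after 300 µg/l it was below sham at all 3 times. No fitted difference passed the threshold: 600 µg/l against sham was 0.02 (SE 0.12, interval -0.25 to 0.28, adjusted p = 0.98), 300 µg/l against sham -0.14 (SE 0.12, adjusted p = 1.0), and the smoke effect at 6 h minus that at 2 h 0.30 (SE 0.27, adjusted p = 0.93), all by limma.

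Ddit3 encodes CHOP, a transcription factor of prolonged stress that favours cell death. Its signal (1369590_a_at) was 365.2 in sham, 423.2 after 300 and 440.2 after 600 µg/l at 2 h, then 296.9, 308.2 and 313.3 at 6 h, and 239.5, 287.0 and 291.2 at 20 h. The order sham, 300, 600 held at each time, and the time groups did not overlap: 2 h lay above 6 h, and 6 h above 20 h. Of all probe sets, 8.15% had 2 h above 6 h and 9.42% had 2 h above 20 h. The share with 6 h above 20 h was not counted. Nor was the share with all 3 times apart, or that with this order of exposures at each time. Against sham the difference by limma was 0.18 for 600 µg/l (SE 0.09, interval -0.03 to 0.39, adjusted p = 0.55) and 0.15 for 300 µg/l (SE 0.09, adjusted p = 0.98). The single arrays of 600 and of 300 µg/l were above the sham array at 3 of 3 times. The fitted difference of 600 from 300 µg/l was 0.03 (SE 0.09, interval -0.18 to 0.24). At 20 h Ddit3 differed from 2 h by -0.51 (SE 0.09, interval -0.72 to -0.30, adjusted p = 0.096, limma) and at 6 h by -0.36 (SE 0.09, adjusted p = 0.24), lower in 3 of 3 exposures. Over 17 alternatives its adjusted p at 20 h against 2 h ran from 0.089 to 0.52.

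Atf4 encodes the activator of amino acid supply and redox genes in the integrated stress response. Its signal (1367624_at) was 2823.2 in sham, 3331.1 after 300 and 3412.7 after 600 µg/l at 2 h, 2725.7, 2948.6 and 2560.2 at 6 h, and 2684.0, 2412.7 and 2833.0 at 20 h. Both smoke arrays were above sham at 2 h, and the exposures had no common order at the later times. The largest fitted difference was -0.26 at 20 h from 2 h (SE 0.10, limma adjusted p = 0.35), lower in 3 of 3 exposures, with overlap between the time groups.

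**Figure D2:**
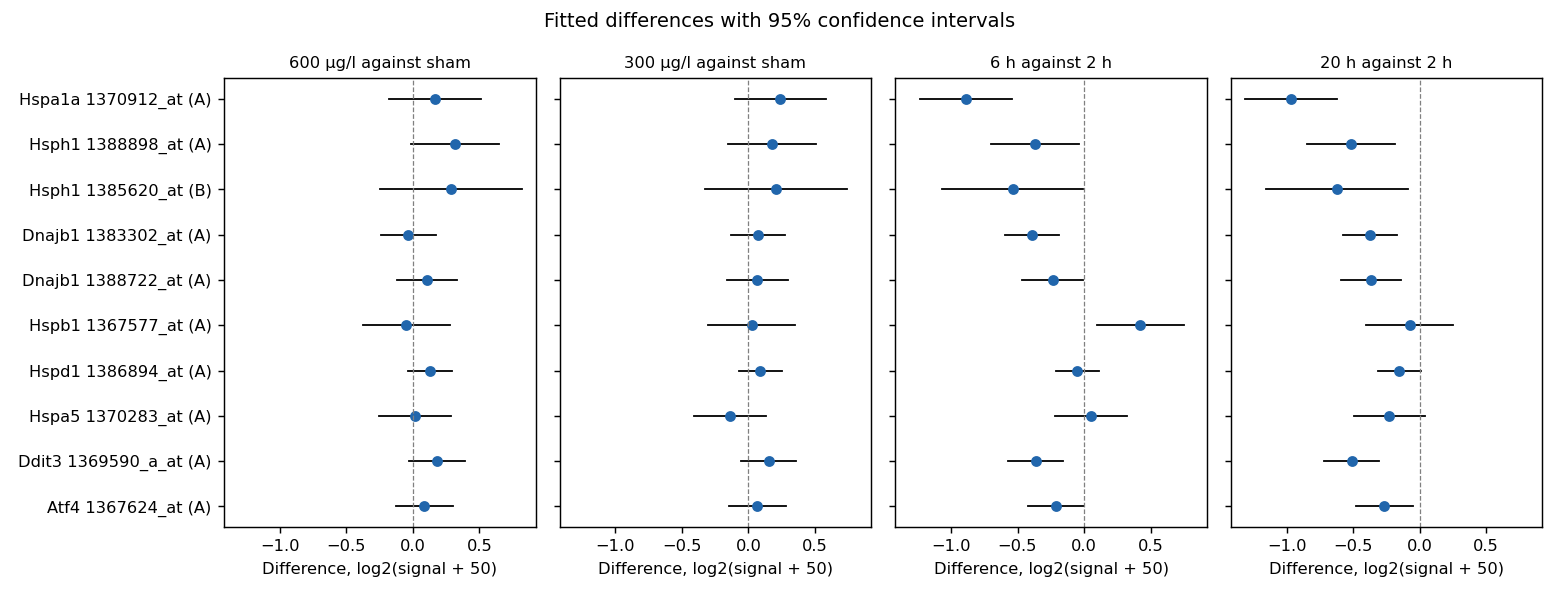
Fitted differences in log2(signal + 50) of the 10 probe sets (rows, with the array type in brackets) for 600 and 300 µg/l against sham and for 6 and 20 h against 2 h. Points are limma estimates from 9 arrays and bars 95% confidence intervals. All 10 estimates at 20 h lie below 0, and the intervals of the exposure differences all include 0.

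Across the 10 probe sets, unadjusted values separated more along recovery time than along exposure, with 0 called for either. The probe sets were read on the same arrays, and Hsph1 and Dnajb1 count with 2 each. Counts over the 10 are therefore not counts of independent values. All 10 probe sets had a lower fitted value at 20 h than at 2 h, with a median of -0.37 against -0.0060 over all probe sets, and 7 of 10 had an unadjusted p under 0.05, as had 11.4% of all. After adjustment 0 of the 10 and 0.0509% of all probe sets were called. All 3 arrays at 2 h lay above all 3 at 20 h for 8 of the 10, beside 9.42% of all probe sets. The exceptions were Hspb1 and Atf4. Of the 8, Hspa5 met this by 2582.0 against 2581.9, and the type B probe set of Hsph1 also without the array labelled sham at 2 h (1292.5 and 1678.8 against at most 1034.7). At 6 h against 2 h the median was -0.30 against -0.0025 over all, 7 of 10 had an unadjusted p under 0.05 beside 10.8% of all, and 0 were called beside 0.0153% of all. Separation of 2 h above 6 h was found for 3 of 10 (Hspa1a, Ddit3 and 1 probe set of Dnajb1; 8.15% of all), and of 6 h above 2 h for Hspb1 alone (7.93% of all). The comparisons of 6 and 20 h with 2 h share the arrays at 2 h. At 20 h against 6 h the median was -0.12, 2 of 10 (Hspb1 and Hspa5) had an unadjusted p under 0.05, and 0 were called beside 0% of all, 881 probe sets having an unadjusted p under 0.05. Among the sham arrays alone, the signal at 20 h was also below that at 2 h for every one of the 10 probe sets except that of Hspb1. Recovery time and the hour of the day at which the lungs were taken cannot be told apart, since the labels give no hour.

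The difference of the smoke effect between times was also tested for each probe set. At 6 h minus 2 h, 0 of the 10 were called (0% of all probe sets, of which 1231 had an unadjusted p under 0.05). Hsph1 on type B had the largest value, 1.05 (SE 0.39, interval 0.17 to 1.93, adjusted p = 0.74, limma), and it rests on the array labelled sham at 2 h, without which it could not be fitted. The type A probe set of Hsph1 gave 0.33 (SE 0.33, adjusted p = 0.94), and Dnajb1 (1388722_at) -0.44 (SE 0.16, adjusted p = 0.75). At 20 h minus 2 h, 0 of the 10 and 0.0102% of all were called, and at 20 h minus 6 h, a comparison added later, 0 of the 10 and 0.00509% of all. The error in these fits comes from the arrays of 300 and 600 µg/l at the same time, and holds no variation of sham.

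Set against sham of the same time, the median difference of the 10 probe sets was highest, among the 6 smoke conditions, at 6 h after 600 µg/l. The differences there were 1.22 and 0.77 for the type B and A probe sets of Hsph1, 0.53 for Hspb1, 0.46 for Hspa1a, 0.36 for Hspa5, 0.21 for Hspd1 and 0.07 for Ddit3, and from -0.10 to -0.02 for Atf4 and both probe sets of Dnajb1. Thus 7 of 10 were higher than in sham, beside 49.8% of all probe sets, and the members' median was 0.28 against -0.00073 over all. The count was not particular to this condition. It was also 7 of 10 at 2 h after 300 and after 600 µg/l and at 20 h after 300 µg/l, and 6 of 10 in the remaining conditions. Of all probe sets, 47.4% to 50.1% were higher than sham there. A difference of at least 0.5 in either direction was reached by 3 of 10 (11.3% of all), all higher. For 3 of 10, Hspb1, Hspa5 and Hsph1 on type A, this array was the highest of all 9, beside 9.46% of all probe sets. These are differences of 1 array from 1 array, with no test. The sham arrays at 6 h, whose hexokinase ratio was the highest on type A (4.52) and the second highest on type B (3.68), are the reference for all of these differences, and the type B one was the lowest of 9 for Hsph1 (684.0). The part of RNA quality in these differences was not tested. The rank among 9 arrays rests on all of them.

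In the other single conditions fewer of the probe sets reached a difference of 0.5. At 2 h after 300 µg/l it was 1 of 10, Hspa1a at 0.56 (4.62% of all), and after 600 µg/l 0 of 10 (8.51%), where Hspa1a was at 0.00. At 6 h after 300 µg/l it was 1 of 10, Hsph1 on type B at 0.51 (10.1%). At 20 h it was 0 of 10 after 300 µg/l (7.83%) and 0 of 10 after 600 µg/l (8.41%), with Hspb1 at -0.42 the farthest from 0. The members' medians after 600 µg/l were 0.03, 0.28 and 0.05 at 2, 6 and 20 h, and after 300 µg/l 0.18, 0.07 and 0.04.

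**Figure D3:**
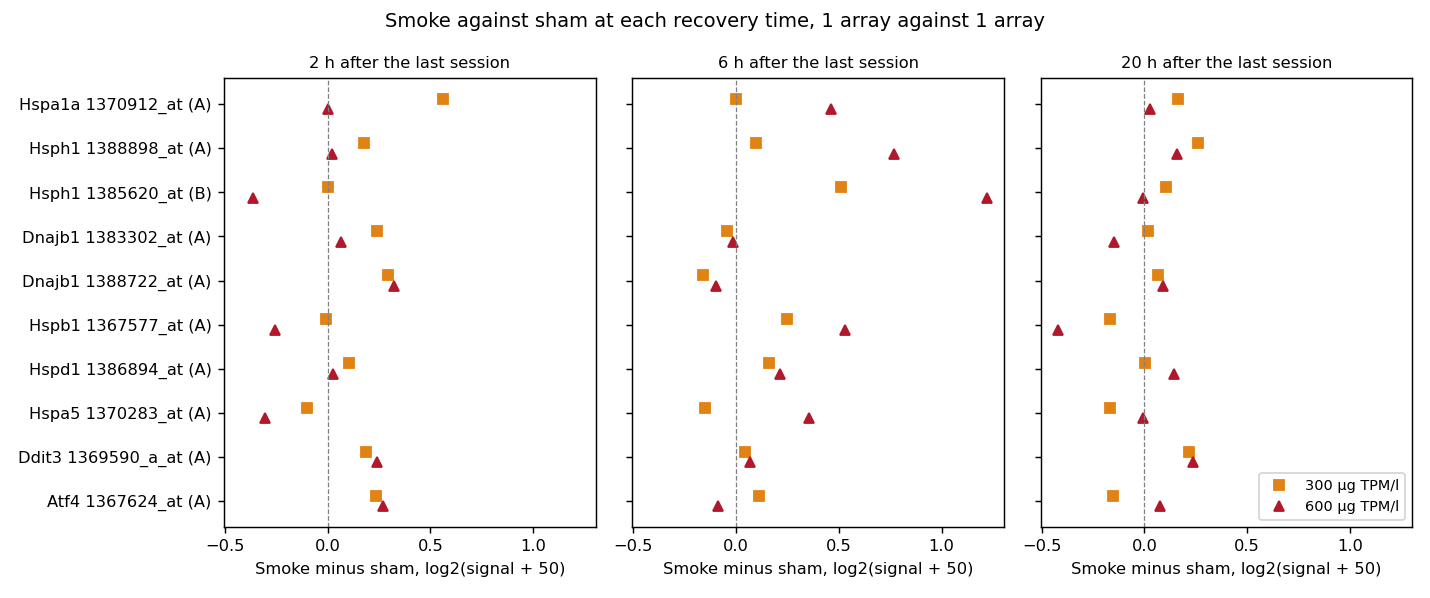
Difference of each smoke array from the sham array of the same time in log2(signal + 50), by probe set (rows) and recovery time (panels), with orange squares for 300 and red triangles for 600 µg TPM/l and 1 array against 1 array. At 6 h the red triangles of Hsph1 lie at 1.22 (B) and 0.77 (A), while those of both Dnajb1 probe sets lie just below 0.

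Other genes of the same pathways, each taken at its brightest probe set, were counted in 4 lists. Of the cytosolic heat shock list 25 of 29 genes were measured, of mitochondrial chaperones and proteases 8 of 8, of endoplasmic reticulum chaperones and the unfolded protein response 23 of 24, and of the integrated stress response 19 of 21. In all 10 comparisons the only gene of these lists past the threshold was Psat1, phosphoserine aminotransferase of serine synthesis and a target of ATF4, after 600 µg/l. Its signal was 366.3, 380.9 and 291.9 in sham at 2, 6 and 20 h, 563.6, 433.0 and 492.8 after 300 µg/l, and 624.4, 512.0 and 555.4 after 600 µg/l. All 3 values after 600 µg/l lay above all 3 of sham, beside 6.98% of all probe sets. This is no further support, since the gene was named for its p in the same comparison. Psat1 was higher by 0.63 (SE 0.11, adjusted p = 0.043, limma). It passed under 10 of 21 alternatives (adjusted p 0.020 to 0.27). Leaving out 1 condition ended the call for 7 of the 9, namely (with the adjusted p then reached) sham at 2 h (0.16) and 20 h (0.17), 300 µg/l at 2 h (0.068) and 20 h (0.056), and 600 µg/l at 2 h (0.17), 6 h (0.12) and 20 h (0.19), and without the 20 h conditions the adjusted p in limma was 0.27. Atf4 itself differed by 0.09 in that comparison (interval -0.13 to 0.30). The count past the threshold was thus 1 of 19 integrated stress response genes higher and 0 lower, beside the 0.514% given above. In the other 3 lists it was 0 in either direction. Regardless of the threshold, 11 of the 19 were higher and 8 lower for 600 µg/l against sham.

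Below the threshold, the smallest p for 600 µg/l against sham in the other lists belonged to P4hb, protein disulfide isomerase, at 0.24 (adjusted p = 0.17), Ptges3, an HSP90 cochaperone, at 0.19 (adjusted p = 0.38), and Hspa9, the mitochondrial HSP70, at 0.21 (adjusted p = 0.52), all from limma. For 20 h against 2 h it belonged to Dnaja1, a J protein of the cytosol, at -0.69 (adjusted p = 0.069, limma). Its signal was 1667.2, 2221.4 and 1677.4 at 2 h in sham, 300 and 600 µg/l, and 1060.0, 1048.8 and 1275.6 at 20 h. All 3 arrays at 2 h lay above all 3 at 20 h, beside 9.42% of all probe sets. Dnaja1 was picked by its p in this same comparison, so the separation is no further support. In the other lists the smallest p was that of Manf, a secreted factor of the stressed endoplasmic reticulum, at -0.33 (adjusted p = 0.37, limma). For Lonp1, a mitochondrial protease, the value was -0.18 (adjusted p = 0.52), and for Eif2ak1, an eIF2α kinase, -0.25 (adjusted p = 0.28). For 6 h against 2 h they were Dnaja1 at -0.53 (adjusted p = 0.18), Nupr1 at -0.41 (0.18), Dnajb9 at -0.36 (0.31) and Lonp1 at -0.19 (0.51), with limma's adjusted p in brackets. For 300 µg/l against sham they were Psat1 at 0.46 (adjusted p = 0.37), P4hb at 0.17 (0.79), Bag3 at 0.19 (0.90) and Grpel1 at -0.11 (1.0), again with adjusted p in brackets. The cytosolic list had a median of -0.15 at 20 h against 2 h with 18 of 25 lower, and the endoplasmic reticulum list -0.03 with 13 of 23 lower.

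At 6 h after 600 µg/l the endoplasmic reticulum list was higher than sham in 19 of 23 genes, beside 49.8% of all probe sets, with a median of 0.29. The same list was higher in 3 of 23 at 2 h (median -0.16) and in 12 of 23 at 20 h (0.01), and after 300 µg/l at 6 h in 17 of 23 (0.18). Hyou1, the large HSP70 relative that serves BiP, had signals of 358.5 in sham and 743.8 after 600 µg/l at 6 h (0.96), and 501.9 against 366.5 at 2 h (-0.41). Further values at 6 h were 0.64 for Sdf2l1, 0.55 for Manf, 0.48 for Hsp90b1 (GRP94), 0.45 for Creld2 and 0.44 for Xbp1. Herpud1, a component of the degradation machinery, was at -0.42. The sham array at 6 h is the reference for both smoke concentrations at that time. It was the lowest of all 9 for Hyou1, Manf (687.4), Hsp90b1 (2758.4) and Xbp1 (3109.3), but not for Sdf2l1 or Creld2, and the highest for Herpud1 (957.3). The part of this array in the list values was not tested. For 11 of 23 genes the 600 µg/l array at 6 h was the highest of all 9, as for Hspa5, beside 9.46% of all probe sets. The fitted smoke effect at 6 h minus that at 2 h had a median of 0.39 over this list against 0.01 over all probe sets. It was above 0 in 18 of 23, with 0 called, and Hsp90b1 had the smallest p (0.59, adjusted p = 0.63, limma). At 20 h minus 2 h the count above 0 was also 18 of 23, with a median of 0.13 against 0.0039 over all and 0 called. These 2 comparisons share the arrays at 2 h. At 20 h minus 6 h the median was -0.23 against -0.0065 over all, with 5 of 23 above 0, 18 below and 0 called. The share of all probe sets above 0 was not counted for these comparisons.

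In the cytosolic list 17 of 25 were higher at 6 h after 600 µg/l (49.8% of all probe sets), with a median of 0.26. The range ran from -0.48 in Dnajb6 to 1.10 in Dnajb5. Of the 25, 4 had their highest of 9 signals in that array (9.46% of all). Hspa4l, a relative of Hsph1, was at 0.80 and Hspa14 at 0.65. The sham array at 6 h was the lowest of 9 for Dnajb5 (101.6), Hspa4l (400.7) and Hspa14 (559.5), but not for Dnajb6 (1638.7). Of mitochondrial chaperones 4 of 8 were higher (median 0.01), and of the integrated stress response genes 11 of 19 (median 0.10), with Ddit4 at -0.81.

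**Figure D4:**
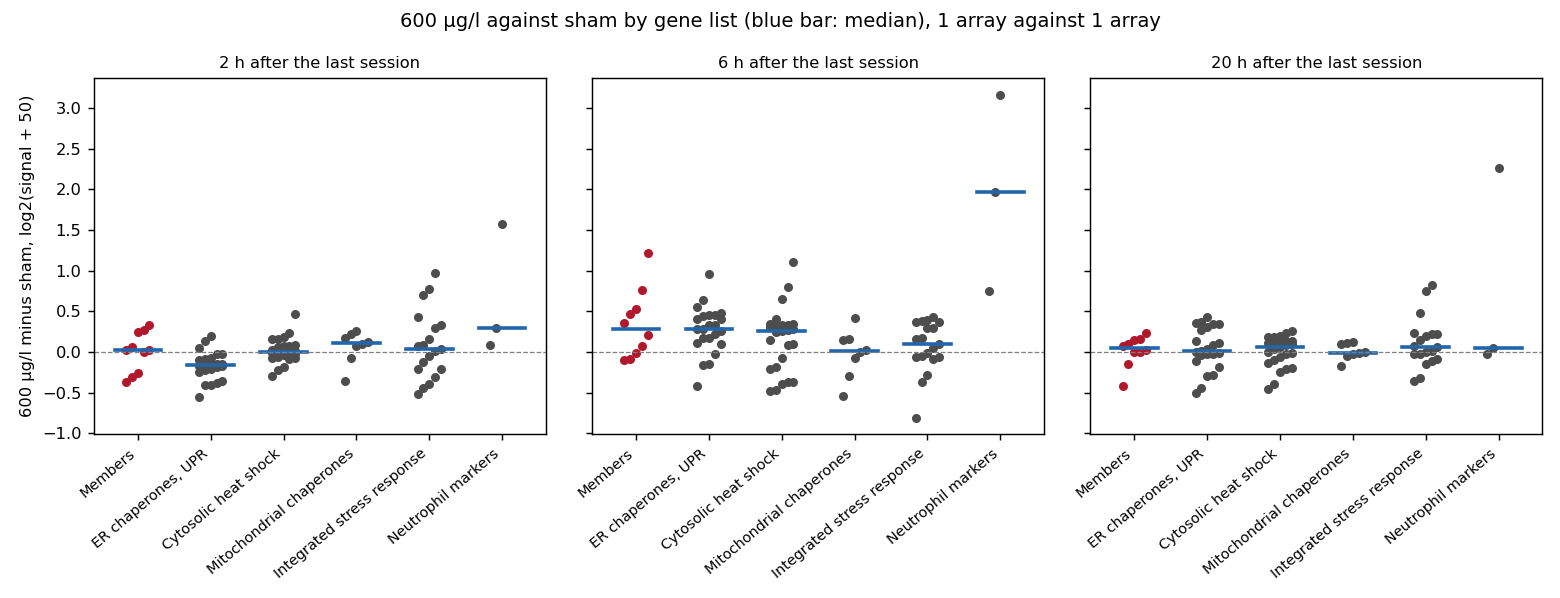
Difference of the 600 µg/l array from the sham array of the same time in log2(signal + 50) for each gene of a list (points; 1 array against 1 array) at 2, 6 and 20 h, with blue bars at the medians and the 10 probe sets of the main set in red. The medians of the endoplasmic reticulum list are -0.16, 0.29 and 0.01, and neutrophil genes have the highest points at 6 h.

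Markers of other cells differed in both directions in the same arrays. All 3 measured neutrophil markers of 4 listed were higher than sham at 6 h after 600 µg/l, with S100a9 at 3.17, S100a8 at 1.97 and Csf3r at 0.75, and Mpo was not measured. Their summed signal was 1287 to 2208.6 in the sham arrays, 3081.6 to 4110.1 after 300 and 3909.1 to 8250.2 after 600 µg/l, the highest at 6 h. Of 4 macrophage markers 3 were measured, with Cd68 at 1.21, Mrc1 at 0.39 and Cd163 at -0.47, and their summed signal was 5238.3 to 6738 in sham, 6700.2 to 7773.5 after 300 and 8098.5 to 8653 after 600 µg/l. Plasma cells, rich in endoplasmic reticulum, had 3 of 4 markers measured, with sums of 3706.7 to 4935.5 in sham, 3671.9 to 4365 after 300 and 4061.9 to 4471.7 after 600 µg/l, and at 6 h 4061.9 after 600 µg/l against 4386 in sham. Of the markers of resident cells, 0 of 3 alveolar type 1, 0 of 3 endothelial, 0 of 2 club and 1 of 5 smooth muscle genes were higher than sham at 6 h after 600 µg/l, and 3 of 4 alveolar type 2 genes. T cell markers were higher in 0 of 3, cardiac muscle markers in 1 of 3 and skeletal muscle markers in 0 of 2. The part of these cells in the values of Hspb1, Hsph1, Hspa5 and the endoplasmic reticulum list was not tested.

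The profiles over the 9 conditions fell along the time pattern for part of the genes, by correlations that describe arrays shared by all genes. Hspa1a ran with Dnajb1 (1383302_at, r = 0.94), Ddit3 (0.88) and Hsph1 (0.87 on A), and Ddit3 with the other Dnajb1 probe set (0.92) and Atf4 (0.79). Hspb1 ran with Hspa5 (0.65) and not with Atf4 (-0.30) or Hspa1a (-0.08). For Hspa5, r was 0.25 with Ddit3, 0.22 and 0.15 with Dnajb1 and -0.01 with Atf4. It was 0.40 with Hspa1a, 0.57 with Hspd1, and 0.61 and 0.60 with Hsph1 on A and B. Among 8409 probe sets of type A with 1 symbol, those most like Hspa1a were Chordc1 (0.95), Dnaja1 (1368852_at, 0.95), Rnf14 (0.94), Dnajb1 (0.94) and Tcf25 (0.92). Chordc1, a cochaperone of HSP90, read 675.6, 786.4 and 638.2 at 2 h in sham, 300 and 600 µg/l. On the later arrays it read 405.3 to 555.1, so every array at 2 h lay above them, while the later times overlapped each other. Of all probe sets, 8.15% had 2 h above 6 h and 9.42% had 2 h above 20 h, with the joint share not counted. Chordc1 was picked for its likeness to Hspa1a, which has the same separation of 2 h, so this is no further support. Among the same 8409 probe sets, those most like Hspa5 were Emp1 (0.91), Phf20 (0.89), Psmd5 (0.88), Rabep1 (0.87) and mrpl24 (0.87), none of them in the lists above.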

How the data were processed

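Total RNA of rat lung was labelled as biotinylated cRNA and hybridised to Affymetrix arrays, per the labels' protocols. The authors deposited linear signal intensity values, for which the submitters' processing notes name MAS5. The version is not given in the sources used here. With the top and bottom 2% removed, each array averaged 500.09 to 500.1, and the authors' scaling was kept. Samples were grouped by title.

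Signals were analysed as log2(signal + 50). A probe set was tested if 3 or more of the 9 arrays reached the 40th percentile of all signals, 183.8 for type A and 238.7 for type B. The 57 control probe sets per type were dropped, and 100 probe sets shared by both types were taken from A. Each type was fitted in R 4.3.3 with limma 3.58.1, using lmFit and trended eBayes, with exposure plus recovery time (4 residual degrees of freedom) or smoke by time (3), and two-sided p-values were adjusted over 19638 probe sets (Benjamini-Hochberg, threshold 0.05). The script was tested on simulated data. The number of arrays limits the precision.

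The members, lists and tests were chosen with earlier results of these data known. All members were named, and of each list the genes past the threshold or the gene with the smallest p. The difference of 0.5, the ranks at 6 h, the list values given for that time and the comparison of smoke effects at 20 and 6 h were chosen after values were seen. Symbols came from the platform annotation and promoters from RefSeq (GRCr8). No other genome sequence and no protein sequence was used. Alternatives were other pseudocounts, filters, scalings and models, and leaving out each condition.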

Additional observations from a re-analysis of the deposited data

How the results depend on the processing

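Under 21 alternatives (16 to 21 per comparison, as the design allowed) the count of called member probe sets stayed at 0 except for 20 h against 2 h. There it was 1, Hspa1a, with median scaling, and 0 to 1 when 1 condition was left out (1 without 300 µg/l at 6 h or without 600 µg/l at 6 h). Of 90 differences of the members, 54 kept their sign under every alternative that was run: 9 of 10 for 20 h against 2 h (not Hspb1), 9 of 10 for 6 h against 2 h (not Hspa5), 6 of 10 for 300 µg/l against sham, and 3 of 10 for 600 µg/l against sham (Hspd1, Ddit3 and Hsph1 on type A). Calls over all probe sets ran from 35 to 143 for 600 µg/l against sham (101 in the main setting), from 1 to 29 for 300 µg/l (9), from 19 to 72 for any exposure difference (42), from 1 to 4 for 600 against 300 µg/l (4), from 1 to 7 for 6 h against 2 h (3), from 0 to 28 for 20 h against 2 h (10) and from 0 to 4 for 20 h against 6 h (0). For the smoke effects they ran from 0 to 1 at 6 h minus 2 h (0), 1 to 4 at 20 h minus 2 h (2) and 0 to 7 at 20 h minus 6 h (1). Scaling moved the median of all probe sets by at most 0.0085 in log2.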
